A study of Mus musculus with 17 samples.

Results

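The genes described here write, copy and erase DNA methylation: Dnmt1, Dnmt3a, Dnmt3b, Uhrf1, Uhrf2, Hells, Tet1, Tet2 and Tet3. They are 9 of the 18193 genes measured in primary abdominal tumors of TH-MYCN mice. Each is represented by those Affymetrix probe sets that are annotated to it alone, 24 probe sets in all, and its level is that of the probe set with the highest mean. The 17 tumors, 1 array each, form 1 group by their labels. All come from mice that, by the study's methods, are hemizygous for human MYCN under the rat tyrosine hydroxylase promoter, which drives the transgene in neural crest derived cells. Sex, age and weight are not among the labels, and no normal tissue is compared here. Values are log2 RMA expression values, so a difference of 1 is a doubling of signal, and each error is the SD between tumors (n = 17). Tumors are called by their submitted names (mad548, for example).

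In mammals a methyl group on cytosine, mostly in CpG dinucleotides, is placed by DNMT3A and DNMT3B and copied onto the new strand after replication by DNMT1. UHRF1 binds hemimethylated CpG behind the replication fork and brings DNMT1 to it, and HELLS is a chromatin remodeler that opens nucleosomal DNA to these enzymes. The TET enzymes oxidize the methyl group, using 2-oxoglutarate and iron, as a first step to its removal. In cells that divide, loss of copying alone dilutes the mark.

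The arrays were alike, and some tumors held RNA of other tissues. The median correlation between pairs of arrays was 0.988 (range 0.969 to 0.994). All 14 sympathoadrenal marker genes measured were in the top quartile of gene levels, as were all 17 mitosis genes. Skeletal muscle RNA was seen in mad553, whose mean over 12 muscle genes was 12.29, in mad550 (10.70) and in mad549 (9.95), against at most 6.66 in the others. In mad562 the 7 liver genes averaged 10.19, and in mad559 7.88. The mean of 4 fat genes spanned 6.08 in mad554 to 9.47 in mad548, with 8.92 in mad556, 8.78 in mad562 and 8.46 in mad558. In whole tumors, fewer cells of a type and less RNA per cell cannot be told apart.

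All 9 genes were measured above the median of gene means (7.54) and varied about as much between tumors as other genes did. On the probe sets that stand for the genes, the ratio of the highest to the lowest tumor ran between 1.45-fold (Dnmt1) and 2.19-fold (Tet2). The SD on them ran between 0.15 and 0.27. The median SD of the 9 was 0.207, against 0.197 for all genes at or above the median level, and 5 of the 9 lay above that value. Different probe sets bind their targets with different strength, so the genes were not ranked by level.

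**Figure D1:**
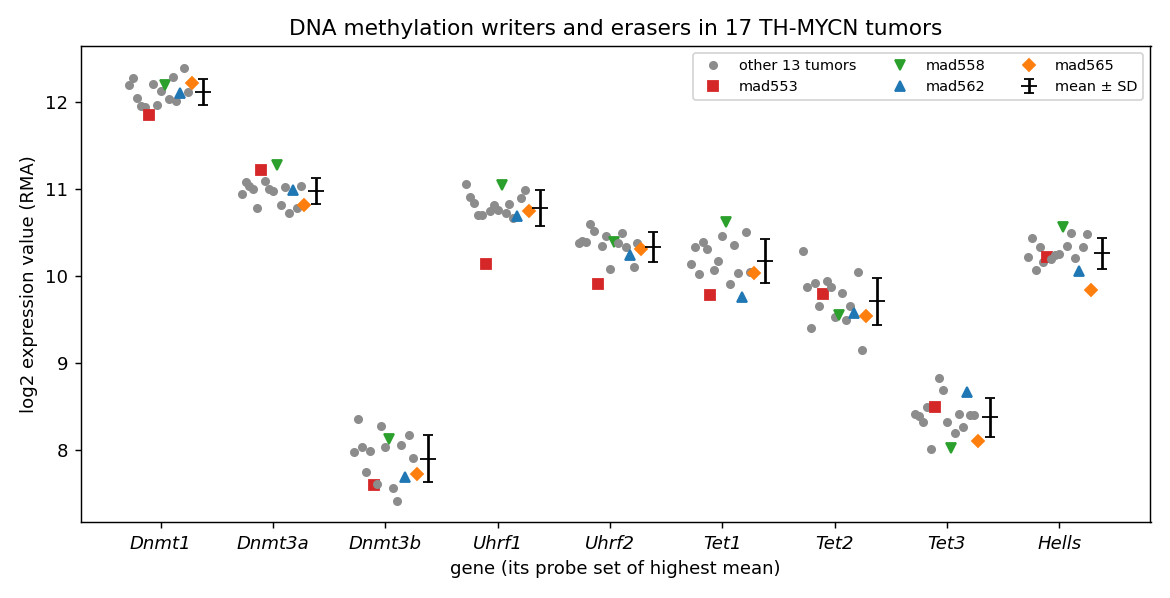
Log2 expression value (y axis) of the 9 genes (x axis) in each of the 17 tumors, with the mean and SD beside the points. Dnmt1 spans 11.86 to 12.40, whereas mad553 (red square) lies apart from the other tumors for Uhrf1 at 10.14.

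On the probe sets that stand for the genes, Dnmt1, the maintenance methyltransferase, had the smallest SD of the 9. Its level was 11.86 in the lowest tumor (mad553), 12.11 at the median and 12.40 in the highest (mad563), with a mean of 12.11 ± 0.15 (SD, n = 17). Its SD was larger than that of only 21.1% of all genes. The other Dnmt1 probe sets had SDs of 0.19 and 0.13, however, and the SDs of Dnmt3a, Uhrf2 and Hells were 0.15, 0.17 and 0.18. All 3 Dnmt1 probe sets had their lowest value in mad553.

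Uhrf1, the reader of hemimethylated CpG, lay between 10.67 and 11.06 in 16 tumors and was lower in the other one on its main probe set. It was 10.14 in mad553, 10.67 in the next lowest tumor, 10.77 at the median and 11.06 in mad548, with a mean of 10.78 ± 0.21. The muscle RNA of mad553 stands beside this low value. In mad550 and mad549, which also held muscle RNA, Uhrf1 was 10.84 and 10.90, both above the median. The part of muscle RNA in the value of mad553 was not tested. On the second Uhrf1 probe set mad553 did not stand apart (8.16, against 8.02 in mad565 and 8.12 in mad555).

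Uhrf2, a relative of Uhrf1 that binds oxidized methylcytosine, was also lowest in mad553 on its main probe set, at 9.91. Its median was 10.38 and its highest value 10.60, in mad551 (mean 10.34 ± 0.17). On the second Uhrf2 probe set mad563 was lowest (5.94, against 6.14 in mad553). Hells was 9.84 in mad565, 10.25 at the median and 10.57 in mad558 (mean 10.26 ± 0.18). On the probe sets that stand for the genes, the lowest tumor of Hells was another than that of Dnmt1, Uhrf1 and Uhrf2.

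Of the de novo methyltransferases, Dnmt3b had the larger SD on the probe sets that stand for the genes. Dnmt3a was 10.73 in mad561, 10.999 at the median and 11.28 in mad558 (mean 10.98 ± 0.15). Dnmt3b was 7.42 in mad560, 7.98 at the median and 8.36 in mad549 (mean 7.90 ± 0.27), a ratio of 1.91-fold between the extreme tumors. The SD of Dnmt3b exceeded that of 75.5% of all genes and the SD of Dnmt3a that of 25.7%. The other 4 Dnmt3a probe sets had SDs of 0.22 to 0.31, however, and the second of Dnmt3b one of 0.22. The tumor lowest for Dnmt3b, mad560, was among the highest for Dnmt1, at 12.29.

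On the probe sets that stand for the genes, the 3 Tet genes did not share their extreme tumors. Tet1 was 9.77 in mad562, 10.14 at the median and 10.62 in mad558 (mean 10.17 ± 0.25). Tet2 was 9.16 in mad564, 9.66 at the median and 10.28 in mad548 (mean 9.71 ± 0.27), the widest range of the 9 genes on these probe sets. The second Tet2 probe set was lowest in mad553 (7.72) and highest in mad563 (8.67). A further Tet1 probe set had a wider range, 7.69 in mad565 to 9.68 in mad552. Tet3 was 8.02 in mad552, 8.40 at the median and 8.84 in mad554 (mean 8.38 ± 0.22). Tet3 in mad558, the tumor highest for Tet1, was 8.02 as well, and in mad562, the tumor lowest for Tet1, it was 8.66.

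Across the 9 genes a few tumors stood at an end repeatedly. In mad549 all 9 genes lay above their own means, and in mad565 8 of 9 lay below. In mad553 3 genes had their lowest value, and in mad558 3 had their highest (Dnmt3a, Tet1 and Hells). Uhrf1 and Tet2 were highest in mad548, the tumor with the highest fat mean, and the part of fat RNA in these values was not tested. Among all 24 probe sets mad565 was lowest on 7 and mad553 on 6. How often each tumor was at an end over all genes was not counted, so these counts cannot be read as particular to the 9 genes. The median correlation with the other arrays was 0.984 for mad553 and 0.985 for mad565, in a range of 0.978 (mad562) to 0.991 (mad551). The 3′ over 5′ control difference of mad565, a measure of RNA integrity, was 2.60 for Gapdh and 1.84 for beta-actin on the log2 scale, within the ranges of all tumors (2.32 to 2.77 and 1.40 to 1.97).

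How far these values hold depends on the probe set. The 3 Dnmt1 probe sets, with means of 12.11, 11.35 and 10.33, followed one another over the tumors (r of 0.75 to 0.88). The highest of them carries the array's mark for probes that may bind other transcripts, but it followed the probe set without that mark at r = 0.88 (rho = 0.91, permutation p = 2e-05 for r). The Dnmt3b pair followed each other as well (r = 0.65, rho = 0.69, permutation p = 0.00506 for r), and so did the first pair of Tet1 (r = 0.61, rho = 0.84). The main Tet1 probe set had r = 0.54 with the one of mean 7.58. The lowest Tet1 probe set (mean 4.90) correlated only at 0.20, 0.06 and 0.25 with the others.

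For Uhrf1, Uhrf2, Tet2, Hells and Dnmt3a, too, some probe sets of the gene gave different orders of the tumors. The 2 Uhrf1 probe sets had means of 10.78 and 8.43 and correlated at r = 0.24 (rho = 0.21, permutation p = 0.368). The Uhrf2 pair (10.34 and 6.33) stood at r = 0.49. For Tet2 (9.71 and 8.26) r was 0.10, and for Hells, whose probe sets had means of 10.26, 10.09 and 6.93, the highest correlated at 0.18 and -0.18 with the others. The 5 Dnmt3a probe sets spanned means of 10.98 to 7.25 and pairwise r of -0.46 to 0.73, although the annotation ties all 5 to a single sequence record. Of the 26 pairs of probe sets of the same gene, 10 had r above 0.5, 4 had r below 0, and 8 had a Benjamini-Hochberg adjusted permutation p under 0.05. Tet3 has 1 probe set here.

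**Figure D2:**
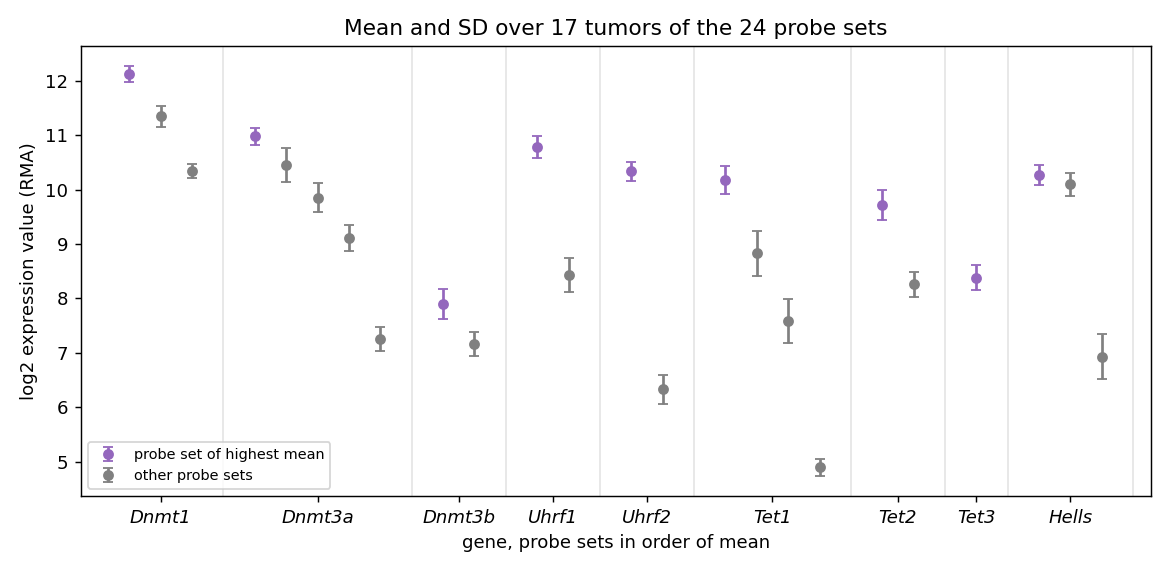
Mean log2 expression value with SD over the 17 tumors (y axis) of all 24 probe sets, grouped by gene (x axis) and in order of mean. Purple points are the probe sets that stand for the genes, and the Dnmt3a probe sets alone span 10.98 to 7.25.

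Few of the 9 genes varied together. In limma fits of every gene on each of the 9 in turn, with Benjamini-Hochberg adjustment over all genes, 0 of the 36 pairs passed in both fits, and 4 had an unadjusted p under 0.05 in both. In those fits 40 of 18192 genes rose with Dnmt1 (0.22%) and 1 fell (0.0055%), 59 rose with Tet1 (0.324%) and 88 fell (0.484%), and 1 rose with Uhrf1 (0.0055%) and 1 fell. None passed for the other 6, for which 3.34% to 11.9% of genes had an unadjusted p under 0.05. That share was 14.3% for Dnmt1, 11.4% for Uhrf1 and 15.5% for Tet1. The p-values measure the spread between these tumors, and each tumor was measured on 1 array.

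The pair of highest correlation was Dnmt1 and Uhrf1, the copying enzyme and its recruiter (r = 0.62, permutation p = 0.00628, rho = 0.63, permutation p = 0.00888, larger limma adjusted p = 0.245, n = 17). Both were lowest in mad553, and r was 0.47 without that tumor and 0.45 without the 2 tumors farthest from the median. With the mean of all probe sets of each gene it was 0.29. Uhrf1 with Tet1 had r = 0.53 (permutation p = 0.0212, rho = 0.49, permutation p = 0.0488, adjusted p = 0.327) and 0.38 without mad553. Tet1 with Hells had r = 0.53 (permutation p = 0.0279, rho = 0.57, permutation p = 0.0179, adjusted p = 0.420).

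The paralogs gave these values. Uhrf1 and Uhrf2 had r = 0.50 over all tumors (permutation p = 0.0511, rho = 0.26) and -0.04 without mad553, so that their relation rested on that tumor. Dnmt3a and Dnmt3b had r = -0.05. Tet1 and Tet2 had r = 0.11, Tet2 and Tet3 0.31, and Tet1 and Tet3 -0.32. Over all 36 pairs, 21 had r above 0 and 15 below, and 3 had an unadjusted permutation p of r under 0.05.

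**Figure D3:**
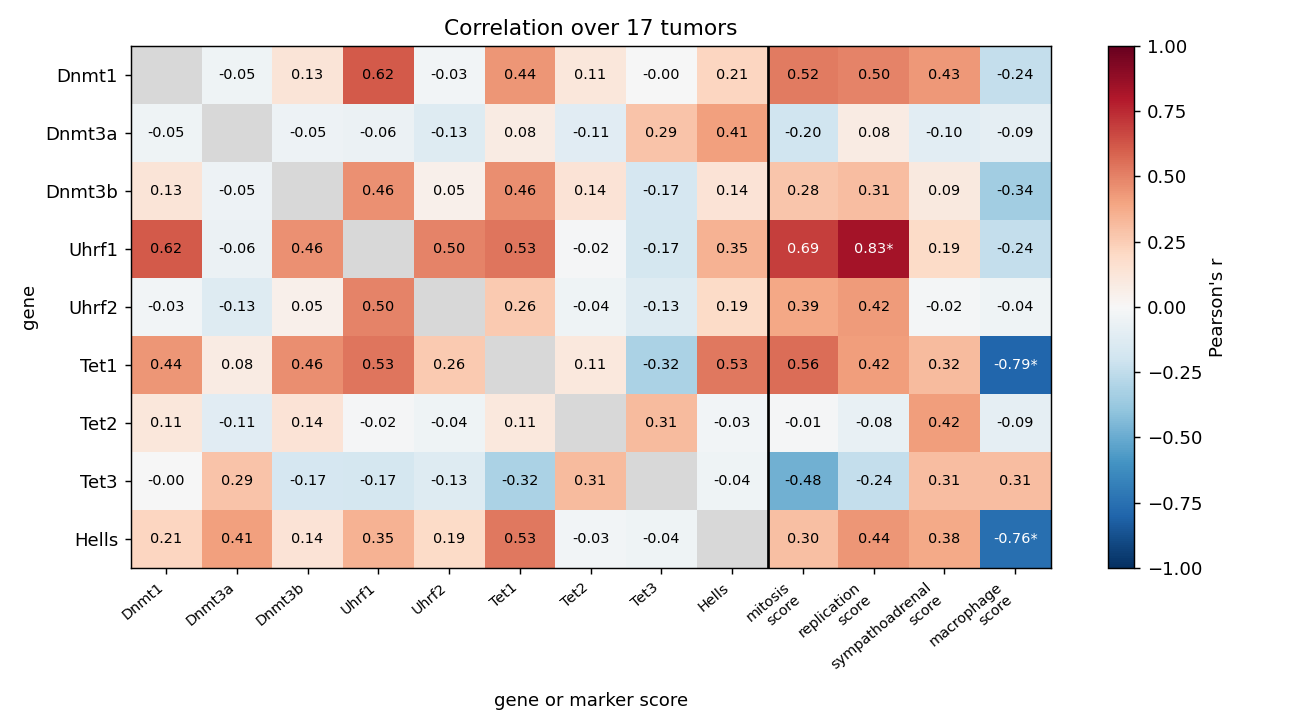
Pearson's r over the 17 tumors between the 9 genes, and between each gene (rows) and 4 marker scores (last 4 columns); stars mark adjusted p under 0.05. The starred cells are Uhrf1 with the replication score (0.83) and Tet1 (-0.79) and Hells (-0.76) with the macrophage score.

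The genes were then set against 4 marker scores, each the mean of a list of genes centred on their own means: mitosis, DNA replication, sympathoadrenal identity and macrophages. None of the 9 genes is in a list. Of the 36 relations, 8 had an unadjusted permutation p under 0.05 and 3 passed the limma test with adjustment over all genes. In the limma fits on the 4 scores, 10.4% (replication) to 18.8% (sympathoadrenal) of all genes had an unadjusted p under 0.05.

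Uhrf1 rose with the replication genes, by 1.34 ± 0.25 (SE) log2 units per unit of the score. The correlation was r = 0.83 (permutation p = 0.00016, rho = 0.76, permutation p = 0.00072), and the limma adjusted p was 0.0493. Uhrf1 was one of 16 of 18170 genes that rose with this score (0.0881%), and 0 fell. The replication list mean was 11.03 in mad553, 11.35 at the median and 11.53 in mad558, so that mad553 was lowest for both.

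The call for Uhrf1 was close to the threshold, while its size moved mainly with mad553. Without mad553 r was 0.68 and the adjusted p 0.92, and without both mad553 and mad558 r was 0.61. The adjusted p was 0.0344 without mad563, whereas without any one of the other 15 tumors it lay between 0.0509 (mad555) and 0.137 (mad558), with r of 0.81 to 0.86. The second Uhrf1 probe set had r = 0.43 with the score. Dnmt1 (r = 0.50), Hells (r = 0.44), Uhrf2 (r = 0.42) and Tet1 (r = 0.42) also had positive r and did not pass.

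With the mitosis score, 0 of the 9 genes passed the limma test, and 4 had an unadjusted permutation p under 0.05. Of all 18176 genes 12.7% had an unadjusted limma p under 0.05, while 154 passed and rose (0.847%) and 47 passed and fell (0.259%). Uhrf1 came nearest (r = 0.69, permutation p = 0.00633, rho = 0.45, permutation p = 0.0743, limma adjusted p = 0.0798), with r = 0.33 without mad553. Tet1 had r = 0.56 (permutation p = 0.0189) and Dnmt1 r = 0.52 (permutation p = 0.0308), whereas Tet3 had r = -0.48 (permutation p = 0.0494). The limma adjusted p of these 3 was 0.229, 0.325 and 0.394. The mitosis list mean was 11.06 in mad553, 11.44 at the median and 11.64 in mad558.

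With the sympathoadrenal score, 0 of the 9 genes passed the limma test and 0 had an unadjusted permutation p of r under 0.05. Of all 18179 genes 18.8% had an unadjusted limma p under 0.05, while 171 passed and rose (0.941%) and 20 passed and fell (0.11%). Dnmt1 (r = 0.43), Tet2 (r = 0.42) and Hells (r = 0.38) had the highest r. For Tet3 r was 0.31 and rho 0.50 (unadjusted permutation p of rho = 0.0439). Without the 2 farthest tumors (mad560 and mad563) r was -0.03 for Dnmt1 and 0.50 for Tet2.

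Tet1 and Hells fell as the macrophage genes rose. The macrophage list held all 12 of its genes, among them Csf1r, the receptor that macrophages need to survive, and its mean was 8.77 in mad558, 9.43 at the median and 10.66 in mad562. Tet1 fell by 0.40 ± 0.08 (SE) log2 units per unit of the score (r = -0.79, permutation p = 0.00013, rho = -0.87, permutation p = 2e-05, limma adjusted p = 0.00403). On its main probe set Tet1 was highest in the tumor with the lowest macrophage mean and lowest in the tumor with the highest. Its probe sets with means of 8.83 and 7.58 were lowest in mad565 and highest in mad552 and mad556. In the limma fit on the macrophage score 89 of 18181 genes fell (0.49%) and 816 rose (4.49%).

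The relation of Tet1 with the macrophage genes was past the threshold without each tumor in turn (adjusted p of 0.00218 to 0.0389, the largest without mad562). Without the 2 farthest tumors (mad550 and mad562) r was -0.76, and without the 3 tumors with muscle RNA it was -0.83. The other Tet1 probe sets had r of -0.57, -0.52 and -0.10, the last with a mean of only 4.90. Liver RNA stood high in mad562 with the macrophage genes, and without that tumor r was -0.75.

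Hells fell by 0.28 ± 0.07 (SE) log2 units per unit of the macrophage score (r = -0.76, permutation p = 0.00047, rho = -0.77, permutation p = 0.00051, limma adjusted p = 0.0200). The adjusted p was 0.0699 without mad558 and 0.052 without mad562. The other Hells probe sets, with means of 10.09 and 6.93, had r of -0.01 and 0.02, so the relation held for 1 of the 3. None of the other 7 genes passed with this score, and their r lay between -0.34 (Dnmt3b) and 0.31 (Tet3). The part of RNA from other cells in these values was not tested.

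**Figure D4:**
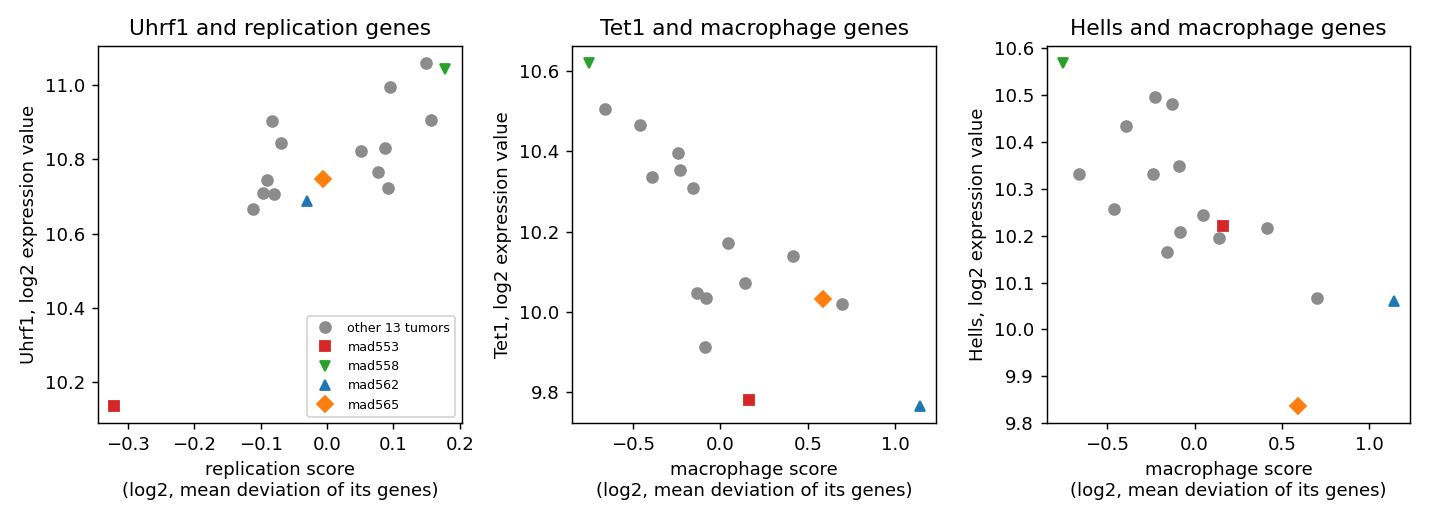
Log2 expression value (y axis) of Uhrf1 against the replication score and of Tet1 and Hells against the macrophage score (x axes, log2 mean deviation of the list's genes), 1 point per tumor. On the left mad553 lies far below the others, and in the other panels mad558 is at the upper left, while mad562 is lowest for Tet1 and mad565 for Hells.

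By likeness of pattern, measured as Pearson's r over the 17 tumors among the 8885 candidate genes at or above the median level with regular gene names, the following came nearest. Dnmt1 was followed most closely by Gstz1 (r = 0.92), Ift46 (0.89) and Dtd1 (0.87), and most opposed by Zfp638 (-0.87), each past the limma threshold. Uhrf1 was nearest to Palb2 (0.89), Abcb8 (0.89) and Maoa (0.85), of which Abcb8 passed. Tet1 was nearest to Ndc1 (0.88), Ank2 (0.87) and Cenpf (0.87) and most opposed by Twf2 (-0.85), and all 4 passed. Cenpf, a kinetochore protein, is a member of the mitosis list.

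None of the nearest or most opposed genes of the other 6 passed the limma threshold. The highest r was 0.87 for Dnmt3b (Tarbp2, then Bdh1 and Hsd17b7), 0.88 for Tet2 (Ttc19, then Ggnbp2 and Dgcr8) and 0.80 for Uhrf2 (Spice1, then Arpin and Neto2). It was 0.80 for Tet3 (Sec16a, then Epg5 and Retreg3), 0.79 for Hells (B3glct, then Slc16a4 and Rad54b) and 0.69 for Dnmt3a (Ddx11, then Traf2 and Zfr). At the opposite end Tet2 had r = -0.78 with Cdca7, the partner that activates HELLS. Hells, on its main probe set, had r = -0.83 with Mertk, a receptor of phagocytes (limma adjusted p = 0.0888), and Tet3 had r = -0.79 with Ska1. The lowest r of Uhrf1 was with Erdr1 (-0.70, limma adjusted p = 0.154), of Uhrf2 with Mfn2 (-0.87), of Dnmt3b with Ywhab (-0.77) and of Dnmt3a with Fabp5 (-0.65).

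The promoters of the genes were read in RefSeq's table for GRCm38.p6, which holds 14 windows for the 9 genes, each with 250 bases before a transcript start and 50 after. They held 2 to 57 CpG dinucleotides, and 13 of 14 held more than the median of 7 over all windows. The letters TTTCCCGC, TTTCGCGC, TTTGCCGC and TTTGGCGC, an E2F-type motif that many genes of DNA replication carry, were searched on both strands after the values had been seen. They occurred in 2.26% of the 32851 windows and in 1 window each of Dnmt1, Uhrf1 and Hells. The stretches around these matches are shown because these are the genes of the copying step, with the match in capitals, 5′ to 3′ on the strand of the gene.
Dnmt1 (chr9:20952824-20952853, minus strand, match to the reverse complement of TTTCGCGC): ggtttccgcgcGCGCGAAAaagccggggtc
Uhrf1 (chr17:56304117-56304146, plus strand): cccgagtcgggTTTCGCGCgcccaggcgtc
Hells (chr19:38930917-38930946, plus strand): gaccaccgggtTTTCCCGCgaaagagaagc

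The matches began 219 bases (Dnmt1), 185 bases (Uhrf1) and 62 bases (Hells) before the start in the table. The Dnmt1 window held a second match after the start. The E-box letters CACGTG, which MYC family proteins are known to bind, occurred in 7.15% of all windows and in 1 window of Dnmt3a, 80 bases before its start, where they stand in capitals.
Dnmt3a (chr12:3891652-3891681, plus strand): tccagtggggccCACGTGacctggagttct

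The E-box letters were also chosen after the values had been seen. No window of Dnmt3b, Uhrf2, Tet1, Tet2 or Tet3 held either motif. A match is a description of the letters and was not tied to any measurement here.

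The partners of these enzymes were read from lists that held 76 genes, of which 68 were measured. In the 612 relations of a partner with one of the 9 genes, 0 passed the limma test and 70 had an unadjusted p under 0.05. The share of partners with an unadjusted p under 0.05 was 16.2% for Dnmt1, against 14.3% of all genes, 14.7% for Dnmt3b, against 8.78%, and 13.2% for Hells, against 9.26%. For Tet1 it was 14.7%, against 15.5% of all genes, and for Dnmt3a 1.47%, against 3.34%. Over the 9 genes the shares were 1.47% to 16.2% of the partners and 3.34% to 15.5% of all genes. The quartiles given for the partner lists are those of the array values and also reflect how strongly each probe set binds.

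Of 13 cofactors of the writers, 9 lay in the top quartile of gene levels and 2 in the lowest. Pcna, the replication clamp on which DNMT1 rides, had a mean of 13.57 ± 0.19, and Trim28, which is drawn to imprinted and repeat DNA by zinc finger proteins, 13.29 ± 0.11. Dnmt3l, the germ cell partner of the de novo enzymes, and Dppa3, which blocks UHRF1 in the oocyte and early embryo, were near the floor of the array at 5.23 ± 0.13 and 4.86 ± 0.10. Cdca7 (10.06 ± 0.22) and Cdca7l (10.06 ± 0.21) varied most in this list.

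A further list held readers of methylated CpG and relatives from the same protein families, such as Mbd3 and Mbd6. All 7 of its genes that were measured lay in the upper quartiles, 3 of them in the top one. Zbtb33 (Kaiso) had a mean of 11.03 ± 0.16 and Mbd3, a subunit of the NuRD complex, 10.28 ± 0.14, and Zbtb4, at 7.86 ± 0.38, varied most in this list. Mbd6 was at 8.78 ± 0.15 and Zbtb38 at 10.26 ± 0.22. Among 7 genes that bind unmethylated CpG, Cxxc5 was at 11.53 ± 0.28, Kdm2b at 11.35 ± 0.14 and Fbxl19 at 7.82 ± 0.17. Cxxc4, whose gene lies beside Tet2 in mammals, spanned 6.31 in mad550 to 9.37 in mad563, an 8.34-fold range. Its r with Tet2 was 0.65, the highest with any of the 9 genes, and its smallest limma adjusted p over the 9 was 0.235.

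Of 14 genes of base removal and repair, 3 lay in the top quartile. Apex1, the abasic site endonuclease, was at 13.09 ± 0.14, Parp1 at 11.39 ± 0.21, Apobec3 at 6.86 ± 0.10 and Gadd45a at 6.31 ± 0.55. Of 12 genes of methyl donor and 2-oxoglutarate metabolism, 9 lay in the top quartile. Ahcy, which clears the product inhibitor S-adenosylhomocysteine, was at 12.79 ± 0.12 and Fh1, fumarate hydratase, at 12.18 ± 0.22. Mtr, methionine synthase, was at 6.91 ± 0.19 and D2hgdh at 8.95 ± 0.17, and Idh1 (11.56 ± 0.27) and Ahcyl1 (11.97 ± 0.24) varied most.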

How the data were processed

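Per the labels, total RNA of 17 tumors was amplified over repeated cycles of cRNA synthesis, which favours 3′ ends, and hybridized to Affymetrix mouse arrays. The deposited values are log2 expression values per probe set that the authors computed by RMA, a method that subtracts background, equalizes probe distributions between arrays and summarizes probes, and the labels name Partek 6.4. The study's methods name MAS5 for its arrays, but the values are on a log2 scale and were used as deposited. Of 45101 probe sets, 64 were controls and 34945 carried 1 gene symbol in the platform annotation. limma 3.58.1 (R 4.3.3, lmFit and eBayes with trend) fitted every gene on each covariate, with Benjamini-Hochberg adjustment over all genes and a threshold of 0.05. Permutation p-values are two-sided with 100000 resamples (Python 3.11.15). In simulated data of 18193 genes, 133 of 200 genes with a true r of 0.8 were recovered, and 0 of 200 with 0.5. At 0.8 there were also 9 false calls. The share recovered in the fits on the tumors, where 0 to 905 genes passed, was not tested. In the tumors Abcb8 and Palb2 both had r = 0.89 with Uhrf1, and Abcb8 passed while Palb2 did not (limma adjusted p = 0.154). The members and gene lists were chosen with earlier results of these data known. Named are all members, the 2 highest, 2 lowest and 2 most variable genes of each partner list, and the 3 nearest and the most opposed gene of each member. List genes without a probe set of their own were not analysed here. Alternatives covered the probe set, centring, a filter on low genes, ranks, a mitosis covariate and left-out tumors. Only 17 arrays limit the precision.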

Additional observations from a re-analysis of the deposited data

How the results depend on the processing

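No paired analysis was possible because every tumor was measured a single time under a single condition. With the mean of all probe sets of a gene, the levels were 11.27 (Dnmt1), 9.53 (Dnmt3a), 7.53 (Dnmt3b), 9.61 (Uhrf1), 8.33 (Uhrf2), 7.87 (Tet1), 8.99 (Tet2) and 9.10 (Hells), and the counts past the threshold were 1 (Uhrf1, adjusted p = 0.044), 0 and 1 (Tet1) for the mitosis, replication and macrophage scores. With median-centred arrays 2 passed for mitosis (Uhrf1, adjusted p = 0.0164, and Tet1, 0.0184). The replication count was 0, and the macrophage count 1 (Tet1), without mad562 and without mad549, mad550 and mad553. With ranks both counts were 0, the adjusted p of Tet1 with the macrophage score being 0.0831. Leaving out each tumor in turn gave 0 to 1 for replication, 1 to 2 for macrophages and 0 to 0 for mitosis, sympathoadrenal genes and pairs. The pair and sympathoadrenal counts were 0 in all of these settings. The direction was kept in them for Uhrf1 with replication, mitosis and Dnmt1 and for Tet1 and Hells with macrophages, the relations whose r was recomputed. With the mitosis score as a covariate r was not recomputed. In that limma fit Tet1 (adjusted p = 0.0147) and Hells (0.0415) passed with the macrophage score, and Uhrf1 did not pass with the replication score. Without mad553, among relations that had not passed, r was -0.04 for Uhrf1 with Uhrf2 (0.50 with all tumors), -0.09 for Uhrf2 with mitosis (0.39) and 0.13 for Dnmt3a with mitosis (-0.20). Why the values moved was not tested. Low probe sets, near the floor of the array, carry little information on differences between tumors.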

Other observations

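A list of 15 germline genes whose promoters are methylated in somatic cells was also read, since several are known to come on in mouse cells that lose DNA methylation. DNA methylation itself was not measured here, so these values do not show how it differed between the tumors. Of the 15, 12 lay in the lowest quartile of gene levels. Mael (3.68 ± 0.10, SD, n = 17) and Hormad1 (3.80 ± 0.11) were near the floor of the array, Brdt was at 7.91 ± 0.28, and the 13 other than Tex19.1 and Tex101 had an SD of 0.10 to 0.28. Tex19.1 and Tex101 varied widely between tumors. Tex19.1, known for its part in the control of retrotransposons in germ cells and placenta, was 5.28 in mad549, 6.51 at the median, 9.42 in mad565 and 9.51 in mad554, an 18.7-fold range, and its SD of 1.33 exceeded that of 99.6% of all genes. Tex101, a surface protein of germ cells, was 5.22 in mad549, 6.24 at the median, 7.99 in mad554 and 9.61 in mad564, a 21.0-fold range. Tex101 was also 5.22 in mad556, and the tumors of highest value differed between both genes. The r between them was 0.26 (permutation p = 0.321, rho = 0.34, permutation p = 0.184) and 0.06 without mad554 and mad565. Neither passed the limma test with any of the 9 genes, with r between -0.29 (Dnmt3b) and 0.21 (Dnmt1) for Tex19.1 and between -0.38 (Dnmt3b) and 0.24 (Tet3) for Tex101.

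Of the deaminase and Gadd45 genes, known for proposed roles in demethylation, Apobec2 and Apobec1 varied most. Apobec2 was 6.49 in mad558, 8.38 at the median and 9.99 in mad554, an 11.4-fold range, and its r with Dnmt3b was -0.67 (smallest limma adjusted p over the 9 genes 0.140). Apobec1 was 6.96 in mad563, 8.06 at the median and 9.95 in mad562, the tumor with the highest macrophage, liver and endothelial means (10.66, 10.19 and 7.49). Their part in this value was not tested. Its r with Tet1 was -0.67 (limma adjusted p 0.0686). Gadd45a was 4.94 in mad558, the tumor highest for Tet1 and Hells, and 7.44 in mad548.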
